A study of Macaca mulatta with 4 samples.

Results

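Oligodendrocyte precursor cells (OPCs) were looked for in single-nucleus RNA-sequencing of the rhesus macaque cerebellum as nuclei with at least 500 genes that held at least 2 PDGFRA molecules, at least 1 molecule of OLIG1, OLIG2 or CSPG4, and no molecule of COL1A2, DCN, MAG or MOG. PDGFRA is the receptor through which platelet-derived growth factor acts on OPCs, OLIG1 and OLIG2 are transcription factors of the oligodendrocyte lineage, CSPG4 encodes the NG2 proteoglycan, COL1A2 and DCN mark fibroblasts, and MAG and MOG encode proteins of mature myelin. SOX10, a further lineage gene of the rule, was not analysed here. The rule chose 191 of 32587 nuclei, or 0.586%, which are called PDGFRA+ lineage nuclei below because, as shown next, not all of them carried further OPC markers. OLIG2 was detected in 137 of them, CSPG4 in 68, both in 14, and OLIG1 in none. OLIG1 was close to absent from the files as a whole, at 0 CPM (defined below) in all other nuclei of 3 libraries and 0.046 in those of the male LPS-exposed fetus.

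The nuclei came from frozen cerebellum (hemispheres and part of the vermis) of 4 fetuses, 1 library per fetus. The 2 controls, a female and a male taken at 130 days of gestation, had no intervention. The 2 LPS-exposed fetuses, a male taken at 133 days and a female at 131 days, were delivered after an injection of 1 mg of LPS, a bacterial endotoxin, into the amniotic fluid, which serves as a model of chorioamnionitis. The comparison of the groups asked whether OPCs differed in number or in gene expression after this exposure, and n was 2 fetuses per group throughout. Both LPS-exposed fetuses were older than both controls, so exposure and gestational age cannot be told apart.

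OPCs are the dividing cells from which oligodendrocytes arise. PDGF keeps them in the cell cycle, and on leaving it they pass through a committed stage marked by GPR17, BCAS1 and ENPP6 before they switch on the genes of the myelin sheath. In the cerebellum the white matter is being myelinated during late gestation and after birth, and the most numerous cells around it are granule neurons, which express RBFOX3.

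The 4 libraries held 34282015 to 61665690 unique molecular identifiers (UMIs, counted molecules), and 6905 to 9256 nuclei each. Depth followed sex and not exposure: the median nucleus had 4506 UMIs in the female control and 4062 in the female LPS-exposed fetus, against 1882 and 2308 in the male control and the male LPS-exposed fetus. Pairs of libraries shared between 16 and 22 barcodes. Depth bears on the rule directly, since every gene it asks for is more often seen in a deeper nucleus.

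PDGFRA alone did not single out a cell type. At least 2 PDGFRA UMIs were found in 34.7% of nuclei of the female control and 45.4% of the female LPS-exposed fetus, against 11.9% of the male control and 9.47% of the male LPS-exposed fetus. Of these 8107 nuclei, 7864 had no lineage gene, 30 more were dropped for a fibroblast gene and 22 for a myelin gene. Levels are given as CPM, the UMIs of a gene per 1000000 UMIs summed over the nuclei named. Free RNA, taken as the sum of barcodes with at most 100 UMIs, held PDGFRA at 508 CPM in the female control, 292 in the male control, 199 in the male LPS-exposed fetus and 1214 in the female LPS-exposed fetus. Nuclei with 2 or more RBFOX3 UMIs, which should lack the gene, still held 259, 212, 155 and 371 CPM in the same order. The chosen nuclei stood above this level in all 4 libraries, at 936, 927, 861 and 726 CPM. The values of PDGFRA in the chosen nuclei follow from the rule and are given as a description.

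**Figure D1:**
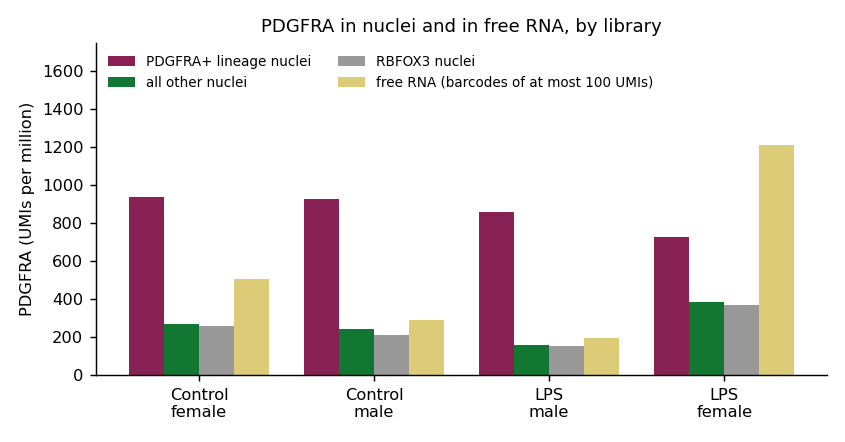
PDGFRA level in CPM (y axis) in each library (x axis), for the PDGFRA+ lineage nuclei, all other nuclei, nuclei with 2 or more RBFOX3 UMIs and free RNA; each bar is 1 library. In the female LPS-exposed fetus the free RNA, at 1214, stood above the chosen nuclei, at 726, while in the other libraries it stood below them.

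OPC genes that the rule did not use were unevenly spread over the chosen nuclei. Of 9 OPC markers outside the rule (VCAN, TNR, LHFPL3, PTPRZ1, SOX6, MEGF11, NXPH1, LUZP2 and PCDH15), the median chosen nucleus had 7 in the female control, 8 in the male control, 8 in the male LPS-exposed fetus and 5 in the female LPS-exposed fetus. Nuclei with 2 or more RBFOX3 UMIs had a median of 1 or 2. Few chosen nuclei lay near the middle, 7 at 4 markers and 11 at 5, so chosen nuclei with 5 or more are called OPC-like here, a cut set after the counts were seen. The OPC-like nuclei numbered 61 of 89 in the female control, 16 of 17 in the male control, 26 of 26 in the male LPS-exposed fetus and 30 of 59 in the female LPS-exposed fetus. Among the RBFOX3 nuclei, 3.999 to 6.004% reached 5 markers. Among astroglia, taken as nuclei with 2 or more AQP4 UMIs and none of PDGFRA, COL1A2, DCN, MAG and MOG, 57.9%, 60.5%, 22.0% and 72.9% did in the female control, male control, male LPS-exposed and female LPS-exposed libraries, so 5 markers are rare in neurons and common in astroglia.

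**Figure D2:**
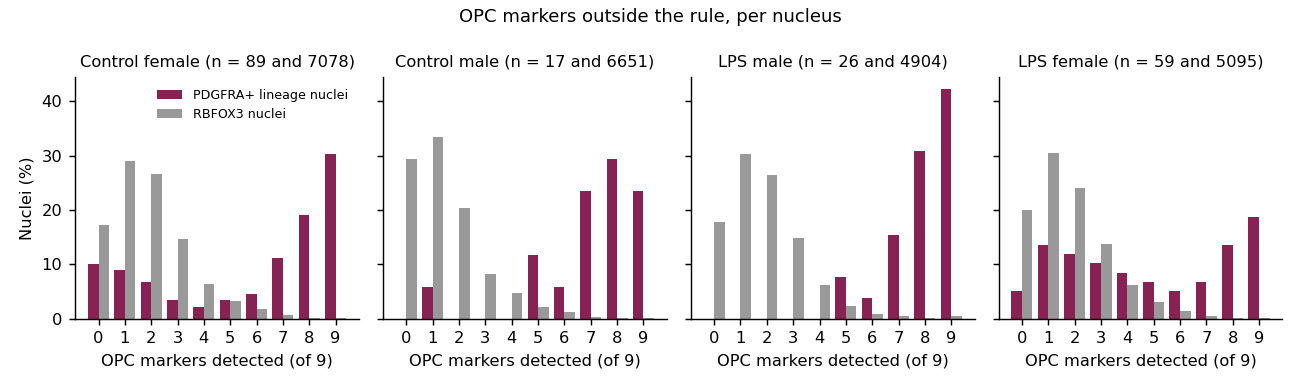
Share of nuclei in percent (y axis) by the number of 9 OPC markers outside the rule that each nucleus held (x axis), for the PDGFRA+ lineage nuclei and the RBFOX3 nuclei of each library; n gives both numbers of nuclei. In the 2 male libraries nearly all chosen nuclei held 5 or more markers, while in the 2 female libraries a second group of nuclei held 0 to 4.

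The remaining 58 nuclei held fewer than 5 of the 9 markers. They came from the female control (28), the male control (1) and the female LPS-exposed fetus (29). Of these, 24 in the female control and 19 in the female LPS-exposed fetus had 2 or more RBFOX3 UMIs. Their PDGFRA level was 555 and 560 CPM in the female control and the female LPS-exposed fetus, against 1066 and 869 in the OPC-like nuclei of the same libraries. RBFOX3 was not confined to them: 43, 4, 11 and 31 of all chosen nuclei had 2 or more RBFOX3 UMIs in the female control, male control, male LPS-exposed and female LPS-exposed libraries. A doublet caller marked 12 of 89, 1 of 17, 2 of 26 and 7 of 59 chosen nuclei in the same order. Over all nuclei it marked 5.46%, 7.39%, 5.64% and 5.33%, a lower rate than among the chosen nuclei of both female libraries.

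In the 2 female libraries the share of OPC-like nuclei was higher at higher PDGFRA counts. With 2, 3 or 4, 5 to 9, and 10 or more PDGFRA UMIs, 23.8%, 56.5%, 93.1% and 100% of the chosen nuclei were OPC-like in the female control, and 27.3%, 34.6%, 80.0% and 100% in the female LPS-exposed fetus, where the last group held 2 nuclei. In the male libraries all chosen nuclei but 1 were OPC-like at any count. Of nuclei with OLIG2 alone, 43 of 62, 10 of 10, 10 of 10 and 22 of 41 were OPC-like in the female control, male control, male LPS-exposed and female LPS-exposed libraries, against 10 of 19, 6 of 7, 13 of 13 and 5 of 15 with CSPG4 alone, a difference that was not tested. All 14 nuclei with both were OPC-like. Just outside the threshold, nuclei that passed the rule but for a single PDGFRA UMI numbered 30, 9, 11 and 18 in the female control, male control, male LPS-exposed and female LPS-exposed libraries, with a median of 2, 3, 2 and 2 markers. Just inside, the nuclei with 2 UMIs numbered 21, 5, 3 and 11, with a median of 1, 7, 9 and 4 markers.

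The share of PDGFRA+ lineage nuclei was higher in the 2 deeper, female libraries than in the 2 male ones, in either group. It was 0.962% in the female control (89 of 9256 nuclei, 95% exact binomial interval 0.773 to 1.18), 0.197% in the male control (17 of 8621, 0.115 to 0.316), 0.333% in the male LPS-exposed fetus (26 of 7805, 0.218 to 0.488) and 0.854% in the female LPS-exposed fetus (59 of 6905, 0.651 to 1.10). The intervals cover counting error only. The mean was 0.579% ± 0.540 (SD, n = 2) in controls and 0.594% ± 0.369 (SD, n = 2) in LPS-exposed fetuses, and the groups overlapped. On the log2 scale the LPS-exposed fetuses differed from controls by 0.29 (exact permutation test, two-sided, p = 1, with 0.333 the smallest p that 2 against 2 can give). Within females the log2 difference was -0.17 and within males 0.76. When nuclei were thinned to 1000 UMIs and shallower ones left out, which kept 8867, 7841, 6017 and 6740 nuclei, the mean of 100 draws was 0.0827%, 0.0505%, 0.0863% and 0.0608% in the female control, male control, male LPS-exposed and female LPS-exposed libraries, from 3.96 to 7.33 nuclei per library, and the spread between the female and male controls shrank. For OPC-like nuclei alone the shares were 0.659%, 0.186%, 0.333% and 0.434%. With 2 fetuses per group no difference in the number of OPCs could pass the test, and fewer cells and less RNA per cell cannot be told apart, since a nucleus with little PDGFRA RNA would be missed.

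**Figure D3:**
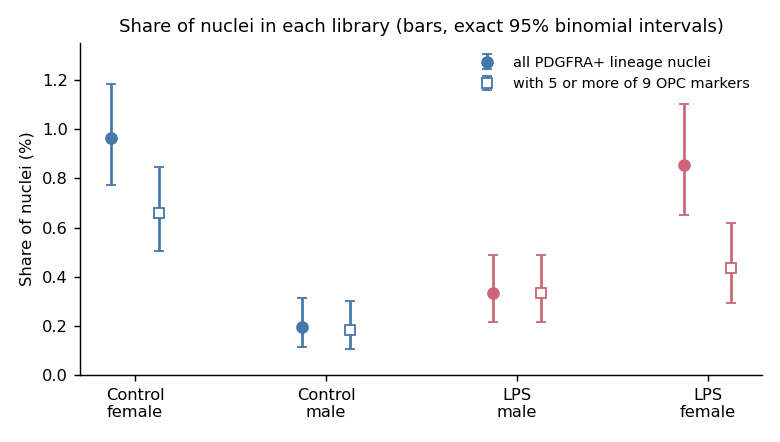
Share of nuclei in percent (y axis) in each library (x axis, controls in blue and LPS-exposed fetuses in red); filled circles are all PDGFRA+ lineage nuclei, open squares the OPC-like nuclei, and bars are exact 95% binomial intervals. Both female libraries, at 0.962% and 0.854%, lay above both male libraries, at 0.197% and 0.333%, in either group.

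The PDGFRA+ lineage nuclei were enriched in OPC genes that the rule did not use. UMIs were summed per library over the chosen nuclei and over all other nuclei and compared with library as a block (edgeR quasi-likelihood test, called at an adjusted p under 0.05 and a log2 fold change over 1 in either direction). Of 14873 genes tested, 635 were called, or 4.27%, of which 457 were higher (3.07%) and 178 lower (1.2%) in the chosen nuclei. DESeq2 called 345 higher and 71 lower, and with called doublets left out 472 were higher and 340 lower. With OPC-like nuclei in place of all chosen nuclei, 455 genes were higher and 419 lower, and 498 of the 635 genes stayed called. The median log2 difference over all tested genes was -0.10. The genes of the rule are described above and were left out of what follows.

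Of 28 OPC genes listed, 27 were tested, 21 were higher and none was lower, with a median log2 difference of 2.25. Against astroglia 18 of 27 were higher and 2 lower (6.54% and 7.98% of all genes), with a median of 1.55. Against nuclei with MAG or MOG, defined below, 14 of 26 were higher and 2 lower (11.7% of all genes each way), with a median of 1.23. LHFPL3, a tetraspan membrane protein gene typical of OPCs, was at 6128, 5720, 4815 and 3229 CPM in the chosen nuclei of the female control, male control, male LPS-exposed and female LPS-exposed libraries and at 887, 641, 416 and 826 in the other nuclei. The ranges did not overlap, and the log2 fold change was 2.77 ± 0.16 (SE, edgeR adjusted p = 1.5e-62). Here and below, the SE and p come from a fit that shares variance over genes. They do not measure the spread between fetuses, which the values per library show. SEMA5A, a guidance molecule, was at 564, 833, 886 and 427 against 43.5, 44.0, 50.6 and 45.6, a log2 fold change of 3.72 ± 0.16. SULF2, a sulfatase that edits heparan sulfate, was at 387, 676, 676 and 203 against 9.89, 45.4, 28.1 and 17.3, a log2 fold change of 4.31 ± 0.17 (edgeR adjusted p = 6.1e-133). All 3 genes were lowest in the female LPS-exposed fetus, which was the library with the smallest share of OPC-like nuclei. PCDH15, a protocadherin, PTPRZ1, a receptor phosphatase, SOX6, a transcription factor that holds back differentiation, and TNR, a matrix glycoprotein, rose by 2.94 ± 0.16, 2.25 ± 0.15, 3.07 ± 0.16 and 2.89 ± 0.17 on the log2 scale. VCAN and CA10 were among the 6 that did not pass. CA10 missed the fold threshold alone (log2 difference 0.68 ± 0.15). VCAN was at 363, 314, 300 and 288 CPM in the chosen nuclei and at 250, 314, 117 and 302 in the others. In astroglia VCAN was at 1147, 961, 307 and 1675 CPM, above the chosen nuclei in each library. LHFPL3 was at 3378, 2178, 756 and 3671 CPM in astroglia, above the chosen nuclei in the female LPS-exposed library only.

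**Figure D4:**
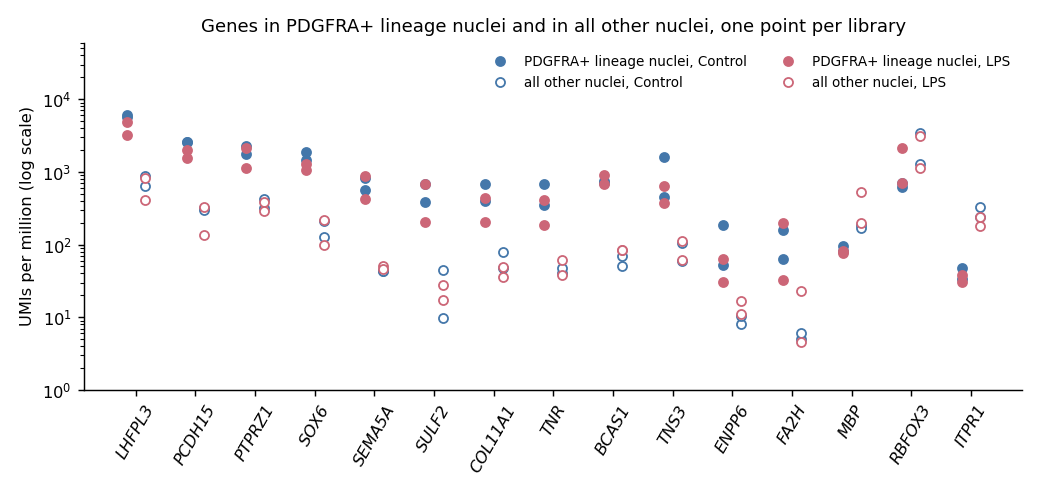
Level of 15 genes in CPM on a log scale (y axis), with filled points for the PDGFRA+ lineage nuclei and open points for all other nuclei, 1 point per library (controls in blue, LPS-exposed fetuses in red). From LHFPL3 to FA2H all 4 filled points lie above all 4 open points, and for MBP and ITPR1 they lie below.

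Outside the OPC list, the genes with the largest log2 fold change included several of low level. The filter on low counts reads CPM, and the chosen nuclei have small sums, so rare genes could pass it through these nuclei alone. ASIC4 and SALL3 did so, and their large fold changes are given as a description only. The higher genes counted above include them. ASIC4, a proton-gated channel subunit, was at 15.9, 62.9, 19.1 and 8.22 CPM in the chosen nuclei of the female control, male control, male LPS-exposed and female LPS-exposed libraries, against 0.427 or less in the others (log2 fold change 5.84 ± 0.56). SALL3, a zinc finger factor, was at 24.8, 15.7, 19.1 and 8.22 against 0.848 or less (5.76 ± 0.56). TGFA, a ligand of the EGF receptor, was at 40.7, 78.6, 38.3 and 35.6 against 2.66 or less (4.37 ± 0.48). KCTD16, an auxiliary subunit of the GABA-B receptor, was at 379, 204, 293 and 351 against 22.2 or less (4.13 ± 0.19), a higher level in every library. OPCML, a cell adhesion molecule, was at 2823, 5642, 5095 and 1912 against 134, 176, 625 and 135 (3.97 ± 0.17). LGR5, a receptor for R-spondins, BMP7, a bone morphogenetic protein, NKAIN4, which interacts with the sodium pump, and SUSD5 rose by 4.07 ± 0.49, 4.05 ± 0.52, 3.89 ± 0.34 and 5.07 ± 0.49 on the log2 scale and were higher in 4 of 4 libraries. GCGR, TENT5B, GJC3 and RLBP1, with log2 fold changes of 4.53 to 3.87, had no UMI in the chosen nuclei of at least 1 library, so their size is poorly known.

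Of 33 lineage transcription factors listed, 27 were tested, and 7 were higher and 1 was lower than in all other nuclei, against 3.07% and 1.2% of all tested genes. Against astroglia 2 were higher and 3 lower of 19, where the shares over all genes were 6.54% and 7.98%. SOX2, a factor of neural precursors, was at 494, 739, 198 and 334 CPM against 87.3, 55.6, 69.5 and 101 in the other nuclei (log2 fold change 2.26 ± 0.16), lowest in the male LPS-exposed fetus. HES5, an effector of Notch, and MYRF, the factor that drives myelin genes, rose by 1.57 ± 0.44 and 1.68 ± 0.54 from a low level, and ST18 fell by 1.13 ± 0.17 on the log2 scale. ZEB2, at 1.04 ± 0.15, was near the fold threshold of 1. Of 33 tested genes of the Notch, Wnt, BMP and hedgehog pathways, 4 were higher and 1 was lower (3.07% and 1.2% of all genes). Against astroglia 0 were higher and 8 of 27 lower (6.54% and 7.98% of all genes), so the higher genes named next were higher than in a population made up mostly of RBFOX3 nuclei. MAML2, a coactivator of Notch, was at 1704, 1524, 1148 and 1421 against 372, 253, 346 and 393 (2.00 ± 0.15). DLL1, a ligand of Notch, and NOTCH1, its receptor, rose by 2.40 ± 0.50 and 2.05 ± 0.26. LRP5, a Wnt coreceptor, rose by 1.12 ± 0.29, and GLI3, a transcription factor of hedgehog signaling, fell by 1.18 ± 0.17.

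PDGF and the other growth factors were expressed unevenly. Of 19 tested ligands, 3 were higher and 2 lower in the chosen nuclei, where 3.07% and 1.2% of all genes were. PDGFB rose by 1.73 ± 0.47 and VEGFA, an angiogenic factor, by 1.61 ± 0.24 on the log2 scale, although VEGFA was at 70.8, 236 and 185 CPM in the female control, male control and male LPS-exposed libraries and at 13.7 in the female LPS-exposed one. The rise of PDGFB was lost among the OPC-like nuclei alone, where the log2 difference was -0.017. NRG1, a ligand of ERBB receptors, fell by 1.07 ± 0.16. PDGFA, the main ligand of the PDGF receptor on OPCs, was at most 6.38 CPM in the chosen nuclei and did not pass. Of 18 tested receptors besides PDGFRA, 1 was called by edgeR, NRP1, and 0 by DESeq2, against 4.27% of all genes, and its direction turned among OPC-like nuclei (log2 difference 1.10 ± 0.23 over all chosen nuclei and -2.50 in the OPC-like ones). ERBB4, the neuregulin receptor, was at 4134, 3002, 2500 and 4596 CPM in the chosen nuclei and 5732, 2764, 2056 and 5550 in the others. Of 28 tested genes of receptor signaling and its feedback, 3 were higher (3.07% of all genes): PIK3R1, a subunit of PI3 kinase, by 1.64 ± 0.16, SPRY4, an inhibitor of receptor signaling, by 2.27 ± 0.41, and DUSP6, a phosphatase of ERK, by 1.58 ± 0.54.

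Receptors for transmitters, ion channels and matrix genes were compared in the same way, with 3.07% of all genes higher and 1.2% lower than in all other nuclei. Of 33 tested glutamate and GABA receptor genes, 5 were higher and 1 lower, and against astroglia, where 6.54% of all genes were higher and 7.98% lower, 6 were higher and 7 lower of 26. GRIK4 rose by 2.51 ± 0.25, GABRG3 by 1.66 ± 0.27, GRID1 by 1.57 ± 0.15, GRIK3 by 1.31 ± 0.35 and GRIA3 by 1.16 ± 0.16 on the log2 scale, while GRM4 fell by 1.06 ± 0.20. Of 25 tested voltage-gated channel genes, 8 were higher and none lower, and against astroglia 11 were higher and none lower of 24. They included SCN1A, a sodium channel, at 196, 236, 242 and 142 CPM against 44.1, 81.6, 83.0 and 58.7 (1.60 ± 0.18), KCNQ5, a potassium channel, at 361, 157, 274 and 296 against 97.2, 32.2, 92.4 and 130 (1.57 ± 0.17), and KCNJ10, an inward rectifier that glia use to buffer potassium (1.79 ± 0.40). Granule neuron markers had a median log2 difference of 0.38 against astroglia, with 8 of 11 positive, 1 called higher and 0 lower. The part of neuronal RNA in the channel values was not tested. Of 34 tested matrix and adhesion genes, 8 were higher and 1 lower, and against astroglia 8 were higher and 7 lower of 33. LAMA4, a laminin chain, rose by 1.89 ± 0.17 and CDH20, a cadherin, by 1.45 ± 0.15, while LAMA2 fell by 1.23 ± 0.17.

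Of 43 tested genes of innate immunity and cytokine response, 3 were higher and 1 lower by edgeR, against 3.07% and 1.2% of all genes, and DESeq2 called 1. IL1RAP, a coreceptor of interleukin-1, was at 60.1, 15.7, 115 and 19.2 CPM in the female control, male control, male LPS-exposed and female LPS-exposed libraries against 13.8, 10.5, 12.3 and 10.3 (log2 fold change 2.01 ± 0.34). IFIT3 and MX1, genes induced by interferon, rested on 4 and 5 UMIs in all. STAT2, a mediator of interferon signaling, fell by 1.06 ± 0.35. TLR4, the receptor of LPS, TLR3, ISG15, CXCL10 and CCL2 were among 11 listed genes with no UMI in any chosen nucleus. Of 26 tested genes of stress, hypoxia and glucocorticoid response, 3 were higher: VEGFA, ADM, a peptide induced by hypoxia, and ZBTB16, which glucocorticoids induce, the last by 1.44 ± 0.33. The rise of ADM turned to -0.33 among OPC-like nuclei.

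Committed precursor genes were in part higher in the chosen nuclei than in all others. Of 15 tested, 7 were higher and none was lower (3.07% and 1.2% of all genes), with a median log2 difference of 1.19. Against the astroglia 4 of 12 were higher and none lower (6.54% and 7.98% of all genes). Against nuclei with MAG or MOG, defined below, 0 were higher and 11 of 11 lower (11.7% of all genes each way), with a median of -2.65. BCAS1 was at 693, 739, 918 and 674 CPM against 68.9, 51.4, 83.4 and 84.1 (log2 fold change 3.29 ± 0.16), with little spread between fetuses. TNS3, a focal adhesion protein of differentiating oligodendrocytes, was at 453, 1587, 644 and 370 against 59.2, 107, 111 and 62.0 (2.89 ± 0.16), highest in the male control. TCF7L2, a transcription factor of the differentiation step, rose by 1.19 ± 0.15, ENPP6 by 2.43 ± 0.33, NEU4 by 3.18 ± 0.59 and P2RX7 by 1.46 ± 0.29. GPR17 rose by 4.48 ± 0.66, yet no chosen nucleus of the male control held it.

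Counted per nucleus, 53.9%, 70.6%, 65.4% and 40.7% of the chosen nuclei had 3 or more UMIs over 6 committed genes (GPR17, BCAS1, ENPP6, BMP4, NEU4 and TCF7L2) in the female control, male control, male LPS-exposed and female LPS-exposed libraries. The same share was 48.2%, 44.7%, 24.0% and 33.9% in astroglia and 4.99%, 4.09%, 4.71% and 4.97% in RBFOX3 nuclei. The median depth of astroglia was 4990, 2418, 2140 and 4357 UMIs and that of RBFOX3 nuclei 4535.5, 1850, 2821.5 and 4114, against 5141, 2721, 4048.5 and 5195 in the chosen nuclei. Controls averaged 62.3% ± 11.8 and LPS-exposed fetuses 53.0% ± 17.5 (SD, n = 2 each), a difference of -9.23 percentage points (exact permutation test, two-sided, p = 0.667, smallest possible 0.333). Within females the difference was -13.3 points and within males -5.20, which became 2.08 with called doublets left out. Among OPC-like nuclei the share was 72.1%, 68.8%, 65.4% and 70.0%. Thinned to 2000 UMIs, which left 88, 13, 23 and 57 chosen nuclei and 6853, 2883, 3792 and 4887 RBFOX3 nuclei, the chosen nuclei gave 30.6%, 55.4%, 35.6% and 22.2%, and the RBFOX3 nuclei 0.992%, 2.84%, 1.71% and 0.921%. Thinned OPC-like nuclei gave 43.1%, 60.8%, 35.7% and 43.4%, a difference of 0.35 points within females and -25.1 within males. Of 191 chosen nuclei, 101 counted as committed by this measure. TCF7L2 was detected in 68.5%, 88.2%, 73.1% and 52.5% of the chosen nuclei in the same library order, and in 17.4 to 20.1% of RBFOX3 nuclei. BCAS1 was detected in 47.2%, 41.2%, 69.2% and 25.4% of the chosen nuclei. GPR17 was detected in only 5, 0, 1 and 4 of them, and BMP4 and NEU4 in at most 7.69% and 11.8% per library. The measure rests mainly on TCF7L2 and BCAS1, so it does not count nuclei of a GPR17 stage.

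The genes of mature myelin stayed at a low level. Of 18 tested, 3 were higher and 3 lower, against 3.07% and 1.2% of all genes. FA2H, an enzyme of myelin lipid synthesis, was at 63.7, 157, 198 and 32.9 CPM against 4.98, 5.98, 23.3 and 4.49 (log2 fold change 3.42 ± 0.31), and PLLP, plasmolipin, rose by 2.59 ± 0.47. MBP, the myelin basic protein gene, was at 81.4, 94.3, 76.5 and 82.2 against 189, 169, 522 and 200, and fell by 1.60 ± 0.20 (edgeR adjusted p = 5.5e-14). MOBP fell by 2.36 ± 0.73. MAL, OPALIN, ERMN, CNDP1, TMEM125 and GJB1 had no UMI in the chosen nuclei. Because the rule required no MAG and no MOG, a low level of myelin genes is in part what the rule asked for. Summed over 23 genes of the list, myelin RNA was at 548 and 613 CPM in the controls and 759 and 561 in the male and female LPS-exposed fetuses. The log2 difference was 0.17 (exact permutation test, two-sided, p = 0.667, smallest possible 0.333), with 0.03 within females and 0.31 within males.

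No gene of the cell division lists was called between the chosen nuclei and the others. Of 25 tested mitosis genes and 23 tested S phase genes none was called, where 4.27% of all genes were. The medians were 0.05 and 0.16 on the log2 scale. At an unadjusted p under 0.05, edgeR had 3 genes of each list, and DESeq2, which called 0 as well, had 1 mitosis and 3 S phase genes. Against astroglia 4 of 7 S phase genes were higher and none lower (6.54% and 7.98% of all genes), with a median of 1.07. Against nuclei with MAG or MOG 3 of 5 were higher and none lower (11.7% of all genes each way), with a median of 1.80. No mitosis gene was called against either class, of 8 and 4 tested, with medians of 0.69 and 1.02. Nuclei with 2 or more UMIs over the 25 mitosis genes made up 51.7%, 52.9%, 42.3% and 50.8% of the chosen nuclei in the female control, male control, male LPS-exposed and female LPS-exposed libraries, against 42.8%, 24.8%, 30.0% and 41.3% of RBFOX3 nuclei. In the same order they made up 40.4%, 26.3%, 23.0% and 30.5% of astroglia and 33.3%, 17.6%, 22.8% and 46.7% of nuclei with MAG or MOG. Neither glial class was thinned. Thinned to 2000 UMIs, with the same nuclei left out as above, the shares were 22.7%, 37.1%, 15.9% and 24.3% in chosen nuclei against 19.2%, 25.3%, 18.4% and 21.8% in RBFOX3 nuclei. The share was higher than in neurons in 4 of 4 libraries before thinning and in 3 of 4 after it, with the widest gap in the male control, and was not read as cycling. The summed mitosis RNA was 828, 2530, 867 and 627 CPM, so the male control, with 17 nuclei, stood apart: MKI67 was at 33.6, 220, 63.8 and 41.1 and TOP2A at 28.3, 236, 89.3 and 73.9. The share of nuclei differed between the groups by -5.74 percentage points (exact permutation test, two-sided, p = 0.333, the smallest possible), from 52.3% ± 0.888 in controls to 46.6% ± 6.04 in LPS-exposed fetuses (SD, n = 2 each). Within females the difference was -0.84 points and within males -10.6. The groups did not overlap, but among OPC-like nuclei the difference was 0.771 points, from 9.23 within females and -7.69 within males. Thinned to 2000 UMIs, the difference over all chosen nuclei was -9.81 points, from 1.59 within females and -21.2 within males.

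Markers of other cell types were present in the chosen nuclei at various levels, and the counts below stand against 3.07% of all genes higher and 1.2% lower. Granule neuron markers had 0 genes higher and 3 of 14 lower, with a median log2 difference of -0.73. RBFOX3 was at 610, 707, 2156 and 704 CPM against 1296, 3471, 3165 and 1135. The 14 markers summed to 4400 and 2232 CPM in the controls and 7819 and 4867 in the male and female LPS-exposed fetuses. Interneuron and Purkinje markers had 0 higher and 2 of 12 lower, astroglia markers 0 of 10 called, microglia markers 0 of 10 called and fibroblast markers 4 of 10 lower, with LUM and COL1A1 at 0. The rule asked for no COL1A2 and no DCN, so low fibroblast markers are in part what it asked for. Of the choroid and ependymal markers 1 of 5 was lower. Endothelial and mural markers had 4 of 11 higher, FLT1, MECOM, RGS5 and ABCC9. DESeq2 called 2 granule neuron markers, 1 interneuron and Purkinje marker and 0 of the other lists of this paragraph, the fibroblast, choroid, endothelial and mural ones included, which had 3, 1 and 2 genes at an unadjusted p under 0.05. FLT1, a VEGF receptor of endothelium, was at 69.0, 47.1, 12.8 and 326, and MECOM at 81.4, 0, 0 and 356, both highest in the female LPS-exposed fetus. FLT1, MECOM and RGS5 turned to -1.67, -2.39 and -0.022 among OPC-like nuclei.

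The chosen nuclei were then set against the glial classes nearest to them. The astroglia numbered 114, 38, 100 and 59 in the female control, male control, male LPS-exposed and female LPS-exposed libraries. Of 6212 genes tested, 406 were higher and 496 lower in the chosen nuclei (6.54% and 7.98%, 14.5% in all, same test and thresholds). Without the female control the counts were 223 and 332. Higher genes included SULF2 (log2 fold change 6.30 ± 0.38), BCAS1 (5.69 ± 0.41), OPCML (5.37 ± 0.44), SEMA5A (5.02 ± 0.34) and NXPH1, a neurexophilin (4.93 ± 0.56). SUSD5 had no UMI in any astroglial nucleus. Apart from AQP4, which defined the class, lower genes included ANGPT1, an angiopoietin, at 127, 110, 25.5 and 65.7 CPM against 1281, 1263, 597 and 1885 (-4.01 ± 0.29), BBOX1, an enzyme of carnitine synthesis (-4.50 ± 0.39), MAOB, monoamine oxidase B (-4.15 ± 0.52), and RSPO2, an R-spondin (-4.33 ± 0.73). Of the 9 OPC markers, astroglial nuclei held a median of 5, 5, 3 and 5, so several of these markers were shared with astroglia and 5 markers alone do not separate both.

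Nuclei with 2 or more UMIs of MAG and MOG together, fewer than 2 of PDGFRA and none of COL1A2 and DCN stood for mature oligodendrocytes, a class widened after the data were seen because a stricter one that also asked for OLIG1 or OLIG2 and for no PDGFRA held 7 nuclei in all. It numbered 18, 17, 79 and 15 nuclei. Of 4304 genes tested, 504 were higher and 505 lower in the chosen nuclei (11.7% each, 23.4% in all). MBP was at 81.4, 94.3, 76.5 and 82.2 CPM against 11261, 11217, 17861 and 6976 in the MAG or MOG nuclei (-7.20 ± 0.35). The 2 classes differ in MAG and MOG by definition, so a gap in myelin genes is in part what the selection asked for. MOBP (-8.48 ± 0.49), LPAR1, a receptor of lysophosphatidic acid (-7.33 ± 0.47), and TF, transferrin (-6.14 ± 0.37), were lower as well, and OPALIN, MAL, CD22 and ERMN had no UMI in the chosen nuclei. Higher genes included NXPH1 (4.23 ± 0.46), PDE7B, a phosphodiesterase (4.63 ± 0.46), ETS1, a transcription factor (4.70 ± 0.62), and PROM1, prominin (3.94 ± 0.77). VWC2, an inhibitor of BMP, was at 129, 31.4, 121 and 57.5 CPM, against 11.3 in the MAG or MOG nuclei of the male LPS-exposed fetus and 0 in those of the other libraries, and like NXPH1 it was also higher than in astroglia (5.12 ± 0.54).

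No gene was called between LPS-exposed fetuses and controls within the chosen nuclei. Of 5247 genes tested, 0 were called at an adjusted p under 0.1 and a log2 fold change over 0.25, or 0.0%, by edgeR, and 0 by DESeq2. At an unadjusted p under 0.05, edgeR found 28 genes (0.534%), of which 15 were higher and 13 lower, and DESeq2 found 16. The test rested on 63633 to 565280 UMIs per library and on 17 nuclei in the male control. Leaving out the female control gave 36 higher and 7 lower genes, and leaving out the male control, the male LPS-exposed or the female LPS-exposed fetus gave 5, 5 and 14 called genes. Each of these fits left only a male or only a female in a group, so exposure and sex cannot be told apart in it. With all fetuses, both LPS-exposed values lay above both controls for 12.7% of all tested genes and below them for 11.7%.

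The genes with the smallest unadjusted p are given as values, since none passed. Lower in LPS-exposed fetuses were DOCK2, a gene of immune cells, at 69.0 and 78.6 CPM in the female and male controls against 6.38 and 8.22 in the male and female LPS-exposed fetuses (log2 difference -3.17 ± 0.82), from 39, 5, 1 and 3 UMIs. Microglia markers in the chosen nuclei summed to 90.2 and 204 CPM in these controls against 31.9 and 32.9. The part of microglial RNA in the values of DOCK2 was not tested. RBM47, an RNA-binding protein, was at 72.5 and 236 against 12.8 and 21.9 (-2.78 ± 0.75). SNTG1, a syntrophin, was at 304 and 534 against 115 and 140 (-1.62 ± 0.44), the best counted of them with 172, 34, 18 and 51 UMIs. LPP, a focal adhesion protein, was at 203 and 267 against 51.0 and 90.4 (-1.61 ± 0.48), and MITF, a transcription factor, at 63.7 and 157 against 25.5 and 13.7 (-2.35 ± 0.72). FMN1, PDZRN3, RTKN2, SMC4 and ATAD2 were also lower, of which SMC4, a condensin subunit, and ATAD2, a chromatin protein of S phase, belong to the division lists and were highest in the male control, at 409 and 236.

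Higher in LPS-exposed fetuses were COL25A1, a membrane collagen, at 54.8 and 15.7 CPM in the female and male controls against 223 and 112 in the male and female LPS-exposed fetuses (log2 difference 1.85 ± 0.62), and PPFIA4, a liprin, at 51.3 and 31.4 against 236 and 93.1 (1.76 ± 0.62). GRM4, a glutamate receptor, was at 38.9 and 15.7 against 299.7 and 57.5 (2.31 ± 0.83). UBASH3B, a phosphatase that acts on receptor kinases, was at 108 and 157 against 459 and 173 (1.30 ± 0.54). MMP24, SHROOM2, UNC5B, TMEM59L, LAMA5 and POU6F1 were higher as well, with log2 differences between 1.38 and 2.50. The male LPS-exposed fetus was the highest for all 10 of these genes, and it also had the highest granule neuron markers.

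**Figure D5:**
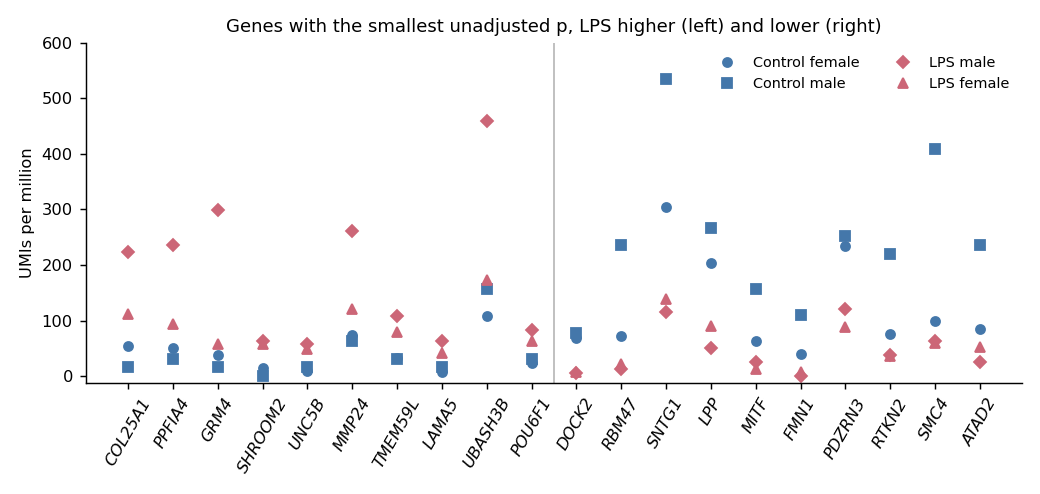
Level in CPM (y axis) of the 10 genes with the smallest unadjusted p in each direction (x axis) in the PDGFRA+ lineage nuclei, 1 point per library (controls in blue, LPS-exposed fetuses in red). The groups do not overlap for these genes, which were chosen by p, and none passed the adjusted threshold; the male LPS-exposed fetus leads on the left, with UBASH3B at 459, and the male control on the right for all 10 genes, with SNTG1 at 534.

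Listed gene groups are described by counts beside those of all tested genes, whose median log2 difference was 0.02. OPC genes had a median of -0.32, 4 of 27 were positive, and both LPS-exposed values lay below both controls for 7 of 27, against 11.7% of all genes. The same count was 9 of 30 for matrix and adhesion genes, 5 of 15 for lineage transcription factors and 5 of 21 for the Notch, Wnt, BMP and hedgehog pathways. In each of these 4 lists both LPS-exposed values lay above both controls for 2 genes. Lineage transcription factors had a median of 0.06 with 9 of 15 positive, and the pathway genes -0.05 with 10 of 21 positive, so neither list was lower as a whole. The 7 OPC genes were MMP16, PCDH15, SOX6, LHFPL3, CSPG5, VCAN and ADARB2. LHFPL3 was at 6128 and 5720 CPM in the controls against 4815 and 3229, and PCDH15 at 2554 and 2546 against 1971 and 1536. PDGFRA itself, which the rule used, was at 936 and 927 against 861 and 726. Committed precursor genes had a median of -0.40 over 12 genes, 3 of them positive, among them BCAS1 at 0.17. Matrix and adhesion genes had a median of -0.23 over 30 genes, mitosis genes -0.62 over 6 and S phase genes -0.29 over 7. Granule neuron markers went the other way, with a median of 0.78 over 10 genes, and for 6 of 10 both LPS-exposed values lay above both controls, against 12.7% of all genes. The estimated share of free RNA among the UMIs of the chosen nuclei was 21.6%, 18.3%, 6.36% and 17.3% in the female control, male control, male LPS-exposed and female LPS-exposed libraries, and with it subtracted the median of granule markers was 1.31. That share was set from markers of other cell types, granule markers included, as the lower quartile of their level in chosen nuclei over that in free RNA. The value of 1.31 is therefore not independent of the granule markers. The part of granule RNA in the values of the OPC genes was not tested. Single fetuses moved these medians. That of OPC genes was -0.13, with 10 of 26 positive, without the female LPS-exposed fetus and -0.67 without the male one. That of granule markers was 1.81 without the female control and 0.29 without the male control. That of committed genes was -0.17 without the male control, -0.18 without the female LPS-exposed fetus and 0.16, with 6 of 11 positive, at 3 or more PDGFRA UMIs. That of matrix genes was -0.005 and that of mitosis genes -2.04 without the female control, and that of S phase genes was 0.09 without the male control. In OPC-like nuclei the medians were -0.31 for OPC genes, 0.83 for granule markers and 0.03 for S phase genes. VCAN, LHFPL3, SOX6 and PCDH15 helped set the OPC-like cut and are also in the OPC list. The median of -0.31 is therefore no separate check of the OPC genes. Immune and cytokine genes had a median of 0.19 over 9 genes, which became -0.37 over 6 in OPC-like nuclei and -0.36 without the male LPS-exposed fetus. Both LPS-exposed values lay above both controls for 1 of these 9 genes, STAT3, and below them for 2, NFKB1 and IFNGR2. None of the listed genes was called.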

How the data were processed

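The authors isolated nuclei from frozen cerebellum, made 10x 3' libraries and deposited UMI counts per gene and barcode for the whole barcode list, mapped to Mmul_8.0.1 with introns. The extract protocol names CellRanger 5.0 and the submitters' processing notes Cell Ranger 4. Free RNA was not subtracted and barcodes were not filtered in the deposited counts. Barcodes with at least 500 genes were kept and called nuclei. The genes and lists were chosen with earlier results of these data known, and 8 of the 9 genes of the rule were found by symbol or ID. UMIs were summed per library and tested with edgeR 4.0.16 in R 4.3.3 (TMM, filterByExpr, quasi-likelihood, Benjamini-Hochberg adjustment over all tested genes), which was tested on simulated data. The SE is the size of the log2 fold change over the square root of the F statistic. That fit shares variance over genes, so the SE is not the spread between fetuses. DESeq2 1.42.0 was an alternative. Levels (CPM) are not scaled by length, so levels of different genes are not compared. Shares were compared by exact permutation tests over fetuses. The labels give no replicate numbers, and each fetus is 1 replicate. Doublets were called with scanpy 1.11.5 (Scrublet). Its own limits marked 0.0% and 0.0256% of the 2 male libraries and were replaced by the median limit of the female libraries. Named genes were, between LPS and control, the 10 of smallest p in each direction, against other nuclei the 15 of largest log2 fold change, against each glial class the 10 of largest change in each direction, and from each list up to 4 genes of highest level and those that passed, of which part are printed.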

Additional observations from a re-analysis of the deposited data

Results flagged for a closer look

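The share of PDGFRA+ lineage nuclei moved in opposite directions in the sexes. In females it was lower in the LPS-exposed fetus than in the control, by -0.17 on the log2 scale (0.854% against 0.962%), and in males it was higher, by 0.76 (0.333% against 0.197%). Each sex has 1 fetus per group, and the difference between the sexes was not tested. Over nuclei without RBFOX3 UMIs both sexes went the same way, by -0.54 in females and -0.35 in males. These nuclei numbered 1646, 1542, 2113 and 1335 in the female control, male control, male LPS-exposed and female LPS-exposed libraries. Their median depth was 4567.5, 2058, 905 and 4077 UMIs, so those of the male LPS-exposed fetus were the shallowest. The part of depth in the male value was not tested.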

How the results depend on the processing

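The log2 difference in the share between LPS-exposed fetuses and controls turned to -0.44 over nuclei without RBFOX3 UMIs, was 0.50 at 3 or more PDGFRA UMIs, 0.12 for OPC-like nuclei and 0.16 thinned, and leaving out 1 fetus gave -0.85 (without the male control) to 1.44 (without the female control). The restriction to nuclei with 2 or more lineage genes gave no value, since the male control had none. The difference in the mitotic share turned to 0.771 percentage points among OPC-like nuclei and ranged from -10.0 to -1.47 with 1 fetus left out. That in the committed share ranged from -21.6 to 3.12, the last without the female LPS-exposed fetus, and was -14.1 thinned, and that in myelin RNA from -0.046 (without the male LPS-exposed fetus) to 0.39. At 3 or more PDGFRA UMIs the myelin difference was 0.58, and with doublets left out it was -0.19 within females and 0.74 within males. With 2 fetuses per group none of these tests could pass.

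Between LPS-exposed fetuses and controls, no filter on low counts gave 2 called genes, TTR (higher) and CCBE1 (lower), and leaving out 1 fetus gave 5 to 43. Without the male control these were NLGN4Y, USP9Y, TTR and RF01871 (higher) and CCBE1, and without the male LPS-exposed fetus NLGN4Y and USP9Y (lower), TTR, MECOM and FN1. The 43 without the female control were led by the mitochondrial CYTB and MT-CO2 (higher), which were called in the other direction without the female LPS-exposed fetus. These genes are named after their values were seen. NLGN4Y and USP9Y are genes of the Y chromosome. Each fit without 1 fetus left only a male or only a female in a group, so exposure and sex cannot be told apart in it. The mean mitochondrial share of UMIs in chosen nuclei was 0.227% and 0.434% in the female control and female LPS-exposed libraries. It was 0.0181% and 0.0127% in the male control and male LPS-exposed libraries. With sex as a replicate block, pairing fetuses of the same sex across the groups, 0 genes were called by edgeR and 109 had an unadjusted p under 0.05. Against all other nuclei DESeq2 called 416 genes in place of 635, and 454 to 582 were called with 1 fetus left out; against astroglia 555 to 990 genes were called in place of 902. PDGFB, NRP1, ADM, FLT1, MECOM and RGS5 turned to -0.017, -2.50, -0.33, -1.67, -2.39 and -0.022 among OPC-like nuclei, and MECOM to -0.016 in DESeq2. The causes were not tested. The 20 genes named between LPS-exposed fetuses and controls kept their direction in every alternative in which they were tested. They were chosen by p and their groups do not overlap, so leaving out 1 fetus could hardly turn them, and this is no support for them. Without the female control the log2 differences of SMC4, RBM47 and SNTG1 were -2.59, -3.50 and -1.92. That of GRM4 was 3.06 without the female LPS-exposed fetus. Each of these fits left 1 fetus in a group.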
